A study of Homo sapiens with 17 samples.

Results

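Regulators of G-protein signalling (RGS) are proteins that switch off signals from G-protein-coupled receptors. Here 8 of their genes were followed in acute myeloid leukemia (AML) cell lines treated with D9, a compound related to DZNep, which blocks the hydrolysis of S-adenosylhomocysteine and thereby methylation reactions. The members, RGS1, RGS2, RGS3, RGS10, RGS14, RGS16, RGS18 and RGS19, were taken with all of their array probes, 14 probes in all, out of 20046 named genes on the array. The set was selected on its measured D9 response, since RGS2 was higher with D9 in these same arrays, so the D9 changes of the 8 members are a description with no test.

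Expression was measured on 17 Illumina bead arrays in 6 human AML cell lines, 1 array for each line and condition, after 48 h without D9 or with 1 or 5 µM D9. TF-1, MOLM-14 and MV-4-11 formed the sensitive class and KG-1a, THP-1 and Mono-Mac-1 the resistant class. MV-4-11 had no 5 µM array, so its change is that at 1 µM alone. TF-1 was the 1 line kept in medium with interleukin-3. The control cells were labelled as untreated, with no vehicle named. Each line is an established cell line and not patient material, and with no repeat arrays the cell line was the replicate.

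A receptor that binds its ligand loads GTP onto a G protein alpha subunit, which then parts from the beta and gamma subunits, and both parts pass the signal on. RGS proteins bind the active alpha subunit and speed up its hydrolysis of GTP, so the signal ends sooner. The members fall into 3 families. RGS1, RGS2, RGS3, RGS16 and RGS18 belong to the R4 family, RGS10 and RGS14 to the R12 family, and RGS19 to the RZ family. In blood cells these proteins are best known for limiting the response to chemokines and other chemoattractants.

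Median raw signals lay between 53.9 and 67.4 over the 17 arrays. Levels are quantile-normalized log2 signals. A level of 6.16 was the limit of the filter on dim probes, and a probe at or near it is not distinguished from background here, since the files hold no detection p-values. In total 28394 probes passed the filter, covering 14337 genes, and 11 of the 14 member probes did, with at least 1 probe for each of the 8 genes. Of the 8 genes, 6 reached more than 1 log2 unit above the filter level in at least 1 line, and RGS3 and RGS14 did not. Arrays of 1 line correlated at 0.978 or more with each other and arrays of different lines at 0.956 or less. Blood lineage markers differed between the lines. TF-1 carried the fetal globin gene HBG1 at a level of 14.59 and the progenitor gene CD34 at 11.63, and had 3 of 10 monocytic markers over 1 log2 unit above the filter level. KG-1a carried CD34 at 13.20 and had 0 of the 10. Of the T cell genes it carried CD3D at 12.73, while CD2 stood at 6.50. THP-1, Mono-Mac-1, MOLM-14 and MV-4-11 had 9, 8, 10 and 6 of the 10, although CD14 stood at only 6.45 in Mono-Mac-1 and 6.49 in MV-4-11.

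RGS2, which acts mainly on the Gq class of alpha subunits, was more than 1 log2 unit above the filter level in 5 of the 6 lines and was higher with D9 in all 5, at both doses. In THP-1 the deposited signal of its probe (ILMN_2197365) was 245.5 untreated, 1015.3 at 1 µM and 1623.1 at 5 µM. Mono-Mac-1 started highest and went from 621.3 to 1335.4 and 1582.4. In TF-1 the signal was 248.3, 629.0 and 667.8. These 3 lines showed the larger changes, 2.02 and 2.79 log2 units at 1 and 5 µM in THP-1, 1.30 and 1.45 in Mono-Mac-1 and 1.30 and 1.58 in TF-1. MOLM-14 went from 353.9 to 560.4 and 933.7, a log2 change of 0.63 and 1.20. KG-1a went from 364.8 to 574.3 and 625.0, a log2 change of 0.52 and 0.68. In MV-4-11 the signal was 53.5 untreated and 56.8 at 1 µM, near the median of those arrays (54.5 and 53.9), so RGS2 was not distinguished from background there with or without D9. On these bulk RNA arrays, more cells with RGS2 and more RGS2 RNA per cell cannot be told apart. The mean change over the lines was 1.14 ± 0.80 (SD, n = 6), with 1.46 in the resistant and 0.81 in the sensitive class. The mean of the other 5 lines was 1.35 without MV-4-11 and 0.88 without THP-1. Treated and untreated levels overlapped between lines, since the untreated level in Mono-Mac-1 (9.14) lay above both treated levels in KG-1a (8.90 and 9.06).

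**Figure D1:**
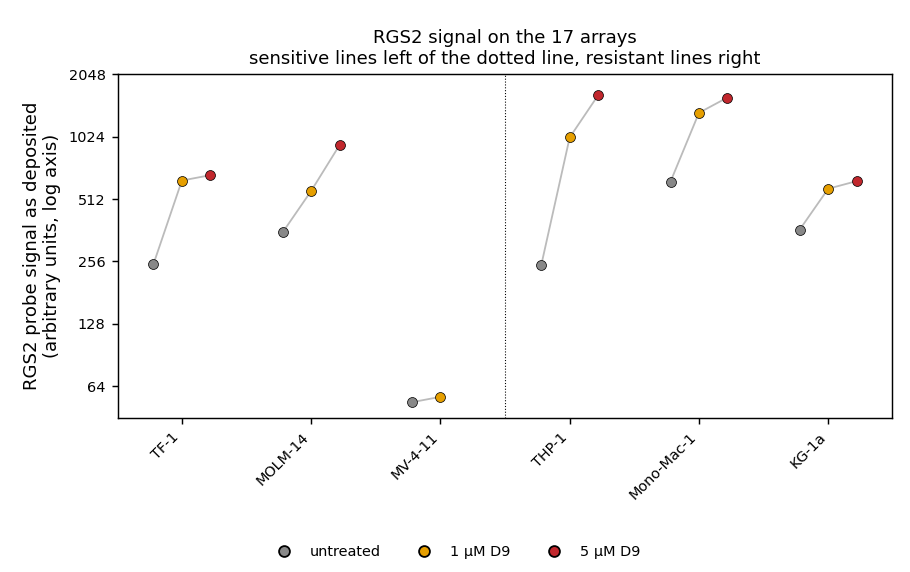
Deposited signal of the RGS2 probe (vertical axis, arbitrary units on a log axis) in each cell line, with grey, orange and red points for untreated, 1 µM and 5 µM arrays, 1 array a point. In 5 lines the order is untreated, 1 µM, 5 µM from low to high, while MV-4-11 lies at 53.5 and 56.8.

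RGS2 shares a stretch of chromosome 1 with other R4 genes. In the RefSeq order of protein-coding genes, BRINP3 is followed by RGS18, RGS21, RGS1, RGS13, RGS2 and UCHL5. Their mean D9 changes over the 6 lines were, in that order, 0.01, 0.02, -0.08, 0.13, 0.10, 1.14 and -0.39 on the brightest probe of each. RGS2 was the 1 gene of this row with a mean change over 1 log2 unit. BRINP3, RGS21 and RGS13 had mean levels of 6.19, 6.31 and 6.23, close to the filter level, whereas RGS18, RGS1 and UCHL5 had 8.40, 6.84 and 8.97. UCHL5, next to RGS2 on the far side, encodes a proteasome-associated deubiquitinase.

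The upstream sequences of RGS2 and of the other members in this row, RGS1 and RGS18, are shown because these 3 genes differed in their D9 change. All 8 members matched a promoter window of RefSeq (GRCh38.p14), 14 windows in all, each with 250 bases before and 50 after an annotated start. The 250 bases before the start are printed 5′ to 3′, and capitals mark TGACG on either strand (CGTCA on the printed strand), the core of the cyclic AMP response element.
RGS2 (chr1:192808789-192809038, plus strand): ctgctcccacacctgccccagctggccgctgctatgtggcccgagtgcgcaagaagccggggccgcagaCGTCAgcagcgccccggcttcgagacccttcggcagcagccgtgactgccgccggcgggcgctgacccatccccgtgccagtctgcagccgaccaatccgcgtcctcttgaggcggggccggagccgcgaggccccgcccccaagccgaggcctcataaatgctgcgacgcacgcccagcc
RGS1 (chr1:192575523-192575772, plus strand): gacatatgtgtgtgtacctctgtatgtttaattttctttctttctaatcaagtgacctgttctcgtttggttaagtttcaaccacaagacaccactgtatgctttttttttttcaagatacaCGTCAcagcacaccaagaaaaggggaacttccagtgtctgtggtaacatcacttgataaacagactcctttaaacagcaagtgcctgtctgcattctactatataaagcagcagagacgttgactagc
RGS18 (chr1:192158212-192158461, plus strand): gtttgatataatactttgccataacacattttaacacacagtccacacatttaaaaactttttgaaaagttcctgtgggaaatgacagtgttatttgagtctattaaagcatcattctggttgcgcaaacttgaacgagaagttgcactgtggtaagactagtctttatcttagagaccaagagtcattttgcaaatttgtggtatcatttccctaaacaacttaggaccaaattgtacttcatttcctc
The stretch before RGS2 is rich in CpG dinucleotides, with 28 of them, against 3 before RGS1 and 2 before RGS18. Over the whole window of 300 bases the counts were 32, 6 and 3, and the median of all 35116 windows was 14. The other members spread widely, from 1 CpG in a window of RGS3 to 43 in a window of RGS19, with 26 for RGS16 and 33 and 5 for RGS10. RGS2 and RGS1 each held 1 such core, which began 181 and 128 bases before the start, and RGS18 held none. The core is frequent, being present in 24.6% of all windows and in 3 of the 14 of the members. The full element TGACGTCA, which contains the core on both strands, was in 1.85% of all windows and in 0 of the 14. Any link of CpG content or of these elements to the D9 changes was not tested.

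RGS18, a regulator of megakaryocytes and platelets, was more than 1 log2 unit above the filter level in every line but MV-4-11. It had no common direction with D9. Untreated levels (ILMN_2101278) ran from 6.97 in MV-4-11 through 7.70 in THP-1, 8.40 in MOLM-14, 8.53 in KG-1a and 8.67 in Mono-Mac-1 to 9.48 in TF-1. With D9 it was lower in TF-1, at 9.03 and 8.97, and higher in MOLM-14, at 8.97 and 9.08. The lowest line, MV-4-11, went from 6.97 to 6.62. The mean change was 0.02 ± 0.43 (SD, n = 6), from -0.48 in TF-1 to 0.63 in MOLM-14.

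RGS1, known for limiting chemokine responses in B and T cells, was well above the filter level in Mono-Mac-1 and KG-1a, both resistant lines. In Mono-Mac-1 its level (ILMN_1656011) was 8.19 untreated, 8.18 at 1 µM and 8.19 at 5 µM. In KG-1a it was 7.47, 7.63 and 7.92. The other 4 lines lay between 5.97 and 6.54 in all conditions. Averaged over the doses the change was 0.40 in TF-1, from 6.14 to 6.54 at both, which is close to the filter level, and 0.31 in KG-1a, with 0.45 at 5 µM.

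RGS16, which acts on the Gi and Gq classes of alpha subunit, had its highest levels in Mono-Mac-1, with 8.67 untreated, 9.08 at 1 µM and 9.04 at 5 µM (ILMN_1808226). KG-1a had 7.57, 7.23 and 7.16, THP-1 7.38, 7.04 and 7.39, and TF-1 7.10, 7.02 and 7.05. MV-4-11 had 6.78 and 6.52, and MOLM-14 was near the filter level at 6.03, 6.18 and 6.25. The change was 0.39 in Mono-Mac-1 and -0.38 in KG-1a, with a mean of -0.05 ± 0.29 (SD, n = 6). RGS3, which has long and short protein forms, was read by 5 probes, and none exceeded 6.54 on any array. The mean changes of its 3 tested probes were -0.09, 0.06 and -0.04, and its other 2 probes did not pass the filter.

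RGS10, a small protein of the R12 family found at high levels in immune cells, differed between lines far more than between treatments. Its brightest probe (ILMN_1733538) read 11.68 in untreated TF-1, 11.19 in KG-1a, 11.04 for MV-4-11 and 10.84 for Mono-Mac-1, and lower down 9.29 in THP-1 and 8.37 in MOLM-14. The untreated range was 3.31 log2 units, against at most 0.56 between the arrays of 1 line. A second tested probe (ILMN_1668559) also placed THP-1 and MOLM-14 last, with 6.87 and 6.72, and put KG-1a (9.04) before TF-1 (8.80). The third probe did not pass the filter. With D9 the first probe was higher in 6 of 6 lines on the quantile scale, but by only 0.01 in THP-1 and Mono-Mac-1 and by 0.45 in MOLM-14, with a mean of 0.14 ± 0.17 (SD, n = 6). With median scaling it was higher in 3 lines and lower in THP-1 (-0.08), Mono-Mac-1 (-0.17) and MV-4-11 (-0.10), so its direction there depends on the scaling. In MOLM-14 the change on the second probe was -0.21, so the probes disagreed there. RGS14, which also binds inactive alpha subunits through a GoLoco motif, stayed between 6.15 and 6.70 on all arrays (ILMN_1696828).

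RGS19, also called GAIP and the 1 member of the RZ family, was lower with D9 in 5 of 6 lines on the quantile scale. THP-1 had its highest untreated level, 10.39 (ILMN_1677085), and went to 9.54 and 9.56. TF-1 went from 9.49 to 9.11 and 9.10, Mono-Mac-1 from 9.69 to 9.41 and 9.25, and KG-1a from 9.09 to 8.84 and 8.69. MOLM-14 read 8.60, 8.58 and 8.30. MV-4-11 alone was higher, at 9.91 untreated and 10.15 at 1 µM, but this direction depends on the scaling. Its deposited signal went from 977.0 to 929.4, and with median scaling its change was -0.04, with RGS19 lower in 6 of 6 lines. The mean change was -0.31 ± 0.35 (SD, n = 6), and THP-1, the line with the largest rise of RGS2, also had the largest change of RGS19, -0.84.

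**Figure D2:**
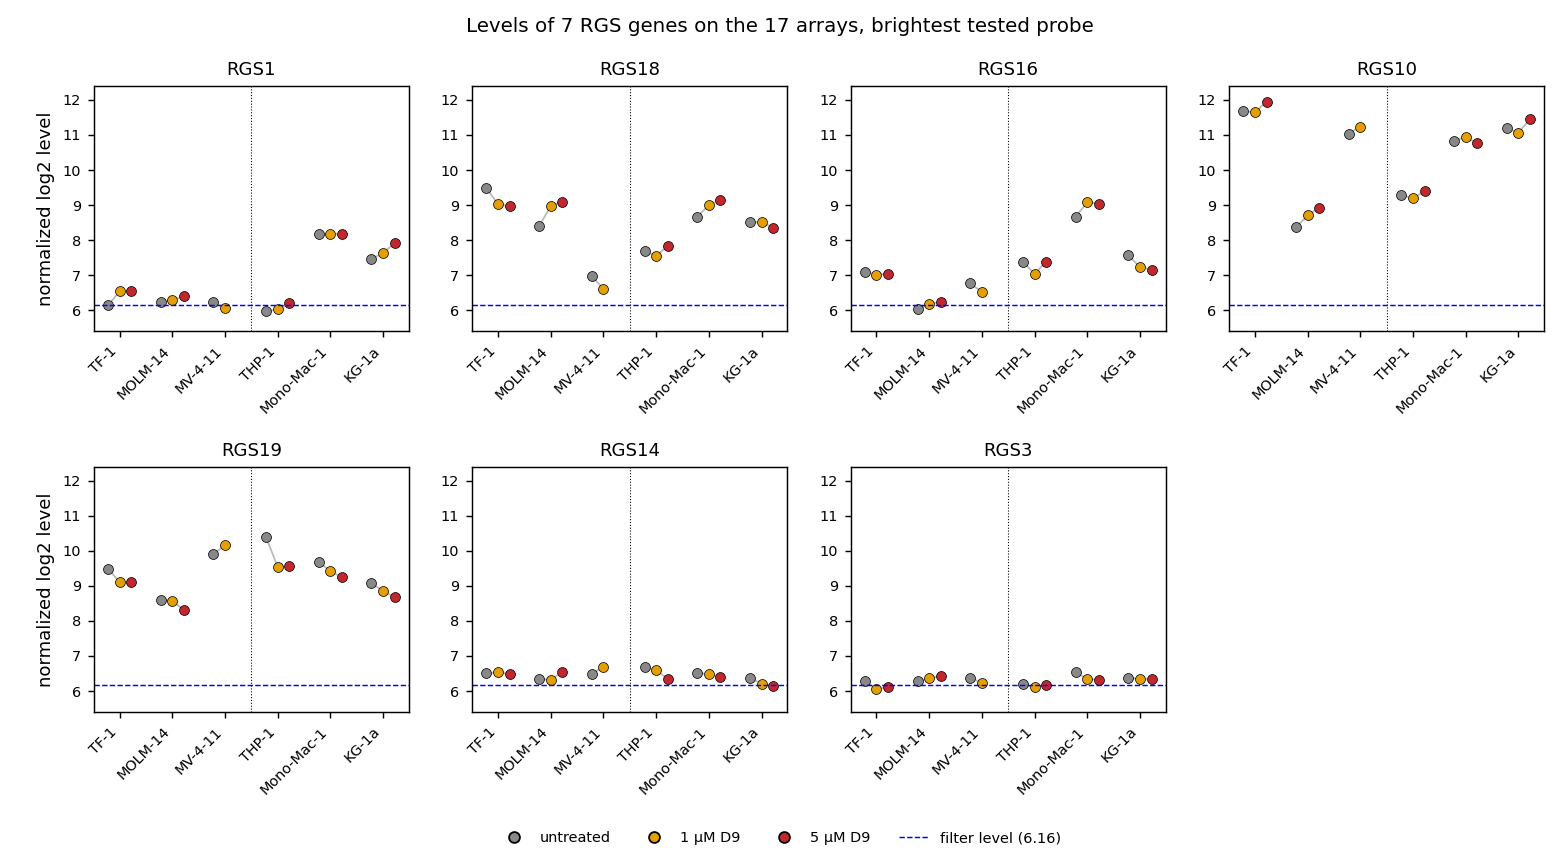
Normalized log2 level (vertical axis) of the other 7 members in each line, sensitive lines left of the dotted line, with grey, orange and red points for untreated, 1 µM and 5 µM arrays and a dashed line at the filter level of 6.16. RGS10 ranges from 8.37 to 11.68 between untreated lines, while RGS14 and RGS3 stay by the dashed line.

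Whether D9 acted differently in sensitive and resistant lines was tested for every probe by limma, and so were the levels of untreated cells. None of the 8 members passed in either comparison at an adjusted p under 0.10. The step from 1 to 5 µM was fitted too, but the members were selected on treated arrays at these doses, so their steps are a description with no test. The class difference comes from the same treated arrays as the selection, so its p-values for the members are not an independent test. The untreated arrays entered every D9 change, so the untreated comparison is not an independent test of the members either. Of all genes on their brightest probe, 0% were called for the class difference in D9 change, 0.795% for the dose step (0.405% higher and 0.391% lower) and 0% for the untreated difference. Of all probes 0.546% were called for the step, 0.282% higher and 0.264% lower, and 0% for the other comparisons. By limma 755 of 28394 probes had an unadjusted p under 0.05 for the class difference and 599 for the untreated difference. The methods' t-test of the class difference gave 946 at that level and 0 after adjustment.

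For the class difference, RGS2 changed less in the sensitive lines by 0.65 ± 0.48 log2 units (SE, limma, adjusted p = 0.999), with a 95% interval of the difference from -1.77 to 0.47. RGS19 had a difference of 0.41 ± 0.21 (SE, -0.07 to 0.89), RGS14 of 0.26 ± 0.12 (SE, -0.01 to 0.53) and RGS10 of 0.23 ± 0.13 (SE, -0.07 to 0.52), each with adjusted p = 0.999 by limma. The sensitive mean for RGS2 includes MV-4-11, where the gene was at background. Without MV-4-11 the RGS2 difference was -0.29 and without THP-1 it was -0.18.

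For the dose step, RGS2 was higher at 5 than at 1 µM in 5 of 5 lines, by 0.38 ± 0.27 (SD, n = 5). The step was largest in THP-1, from 10.14 to 10.90, and MOLM-14, from 9.29 to 9.86. Both tested RGS10 probes also had a step above 0, 0.19 ± 0.21 and 0.20 ± 0.23 (SD, n = 5), and it was above 0 in 4 and 5 of 5 lines. RGS1 had 0.12 ± 0.12 and RGS19 -0.12 ± 0.12 (SD, n = 5).

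In untreated cells, RGS16 had a mean of 6.64 in the sensitive and 7.87 in the resistant lines. The difference was -1.24 ± 0.45 (SE, limma, unadjusted p = 0.0361, adjusted p = 1). By limma 599 of 28394 probes had an unadjusted p under 0.05 in this comparison. The sensitive lines read 6.03 (MOLM-14), 6.78 and 7.10 and the resistant ones 7.38, 7.57 and 8.67. MOLM-14 lay below the filter level, and the share of all probes that separate the classes this way was not counted. RGS1 had a difference of -1.01 ± 0.57 and RGS2 of -0.95 ± 0.68 (SE, limma, adjusted p = 1 for each). The RGS2 difference was -0.25 without MV-4-11. For RGS10 and RGS18 the differences were -0.08 and -0.02, with intervals as wide as -2.59 to 2.44 and -1.72 to 1.69.

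**Figure D3:**
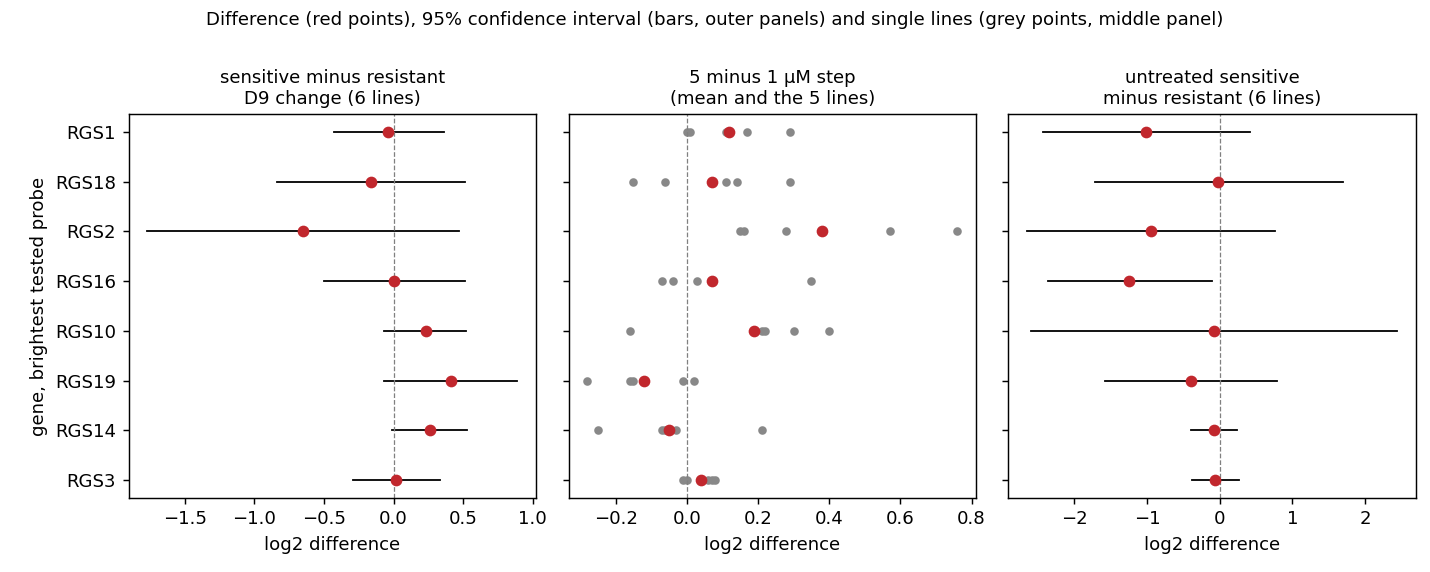
Log2 difference (red points, horizontal axes in log2 units) for the 8 members on their brightest tested probe, with 95% confidence intervals (bars) for the class difference in D9 change and the untreated difference, and with the 5 single lines (grey points) for the dose step. The interval of RGS16 for the untreated difference does not cross 0, the 5 RGS2 steps all lie above 0, and no member passed after adjustment over all probes in the tested comparisons.

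Of 13 further RGS genes on the array, 6 had a tested probe and 0 were called for D9 by limma, against 7.28% of all tested genes and 5.59% of all tested probes (2.78% higher and 2.81% lower). The 4 that follow were chosen after their values were seen, because the tested probe of each was well above the filter level in some lines only. RGS12, a large R12 protein, lay between 7.39 and 9.29 in 5 lines and between 6.04 and 6.16 in KG-1a (ILMN_1722834). In MOLM-14 it went from 8.15 untreated to 8.50 and 9.29, and in Mono-Mac-1 from 7.39 to 8.20 and 8.30, while THP-1 read 8.16, 8.01 and 8.05. RGS20, an RZ relative of RGS19, was well above the filter level on its tested probe in TF-1 and Mono-Mac-1 only. It read 7.90, 8.52 and 8.74 in TF-1 and 7.62, 8.28 and 8.34 in Mono-Mac-1 (ILMN_1738558), against 6.37 or less elsewhere. RGS17, the other RZ relative, was present in TF-1 (8.72, 8.72 and 8.88) and at 6.53 or less elsewhere. RGS13, known from B cells and mast cells, read 6.70, 7.09 and 7.29 in KG-1a and 6.27 or less elsewhere (ILMN_2407775). Other probes of these genes did not pass the filter, with mean levels of 6.11 and 5.88 for RGS12, 5.83 for RGS20 and 6.06 for RGS13. Their levels spanned at most 0.29 log2 units over the 17 arrays, so the patterns of these genes rest on 1 probe each. The mean D9 change was 0.34 ± 0.14 for RGS12 and 0.25 ± 0.13 for RGS20 (SE, limma, adjusted p = 0.233 and 0.360).

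**Figure D4:**
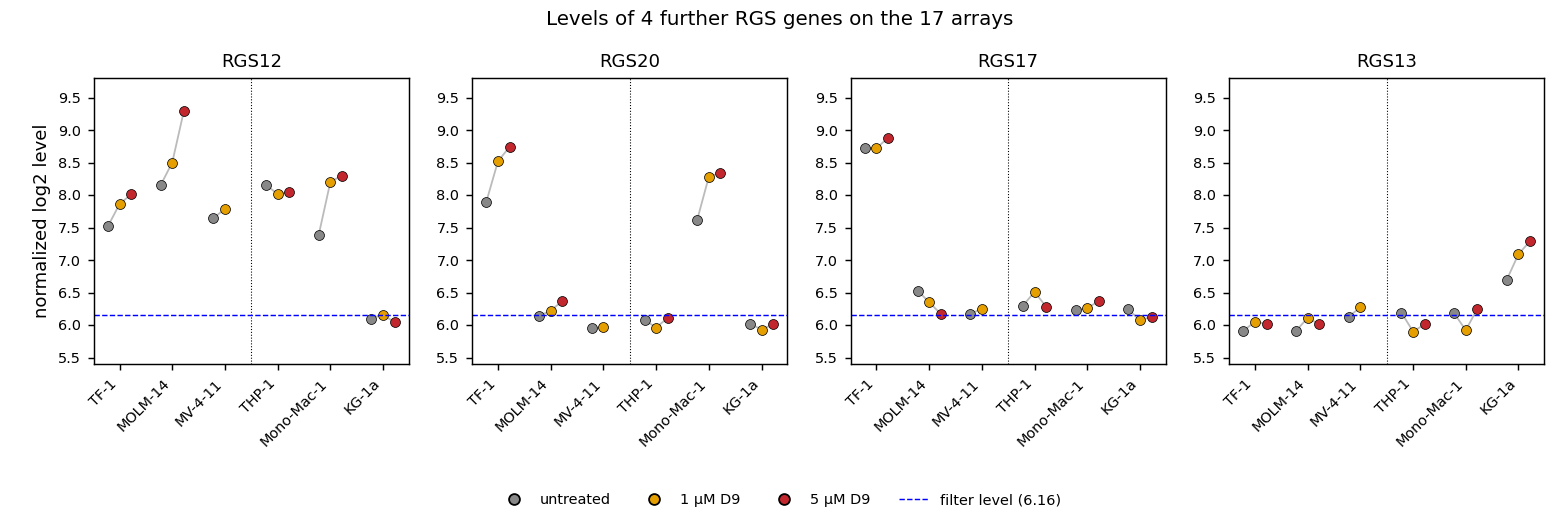
Normalized log2 level (vertical axis) of the tested probe of RGS12, RGS20, RGS17 and RGS13 in each line, with points and the dashed filter level of 6.16 as in the plot of the 7 members. RGS17 stands out in TF-1, RGS13 in KG-1a, and RGS12 is near the filter level in KG-1a alone.

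The genes around the RGS proteins in the pathway were read from lists, on the brightest tested probe of each gene. Over all 14337 tested genes the median D9 change was 0, with 7345 above 0, and 3.86% were called higher and 3.42% lower. No list had more than 1 gene called for D9, which is too few to set any list apart from these shares. Of 12 tested alpha subunit genes, 1 was called higher and 0 lower, with a median of 0.06. This was GNA12, with a rise of 0.38 ± 0.05 (SE, limma, adjusted p = 0.028). Its line changes were 0.61 in KG-1a, 0.60 in both Mono-Mac-1 and THP-1, 0.21 in MOLM-14, 0.15 in TF-1 and 0.13 in MV-4-11. A second, dim probe of GNA12 read -0.08. GNA15, the Gq class subunit of blood cells, passed the dose step with 0.37 ± 0.08 (SE, limma, adjusted p = 0.0989) and had a D9 change of 0.42 ± 0.16 (adjusted p = 0.202 by limma). Its call for the step was lost in 8 of 12 alternatives.

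Of 14 tested beta and gamma subunit genes, 1 was called higher and 0 lower, with a median of 0.03. The gamma subunit gene GNG7 rose by 0.62 ± 0.12 (SE, limma, adjusted p = 0.050), and its line changes ran from 0.24 in MOLM-14 and 0.29 in KG-1a through 0.46 in THP-1 and 0.84 in TF-1 to 0.94 in Mono-Mac-1 and 0.95 in MV-4-11. Of 5 tested receptor kinases and arrestins, 0 were called for D9, and the median was -0.18. ARRB1, which encodes beta-arrestin 1, passed the dose step on ILMN_1819608 with 0.29 ± 0.06 (SE, limma, adjusted p = 0.0997), but the step on its other probes was -0.28 and -0.13.

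Of 30 tested myeloid G-protein-coupled receptors, 20 lay above 0 with a median of 0.09. Of these 30, 1 was called higher and 0 lower, against 3.86% and 3.42% of all tested genes. PTGER4, a prostaglandin E2 receptor that raises cyclic AMP, rose by 0.34 ± 0.07 (SE, limma, adjusted p = 0.0614) and was higher in 6 of 6 lines. Among 16 tested cyclic AMP enzymes and protein kinase A subunits, with a median of -0.03, the phosphodiesterase gene PDE4B was called higher. It rose by 0.64 ± 0.15 on ILMN_2340259 (SE, limma, adjusted p = 0.0763), from 0.17 in KG-1a to 1.18 in MV-4-11, while a second probe near the filter level read 0.00. Among 15 tested genes of phospholipase C beta and calcium signalling, the route fed by the Gq class, the median was 0.10 and the transcription factor gene NFATC1 was called higher. Its 3 probes rose by 0.90, 0.65 and 0.50 (limma, adjusted p = 0.084, 0.0517 and 0.0517), and the line changes on the brightest ran from -0.02 in KG-1a to 1.88 in TF-1. Of 13 tested genes of the cyclic AMP response element, 0 were called on the brightest probe, with a median of -0.06. The other proteins with an RGS domain (8 tested) and the other modulators (6 tested) had medians of -0.07 and 0.03 and 0 calls. Without Mono-Mac-1 none of GNA12, GNG7, PTGER4, PDE4B and NFATC1 passed, with adjusted p of 0.114, 0.159, 0.180, 0.185 and 0.248 by limma. GNA12 kept its call in each of the other 13 alternatives run for single genes. Those without pairing, with the line as a block or at a threshold of 0.05 were not run for single genes.

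**Figure D5:**
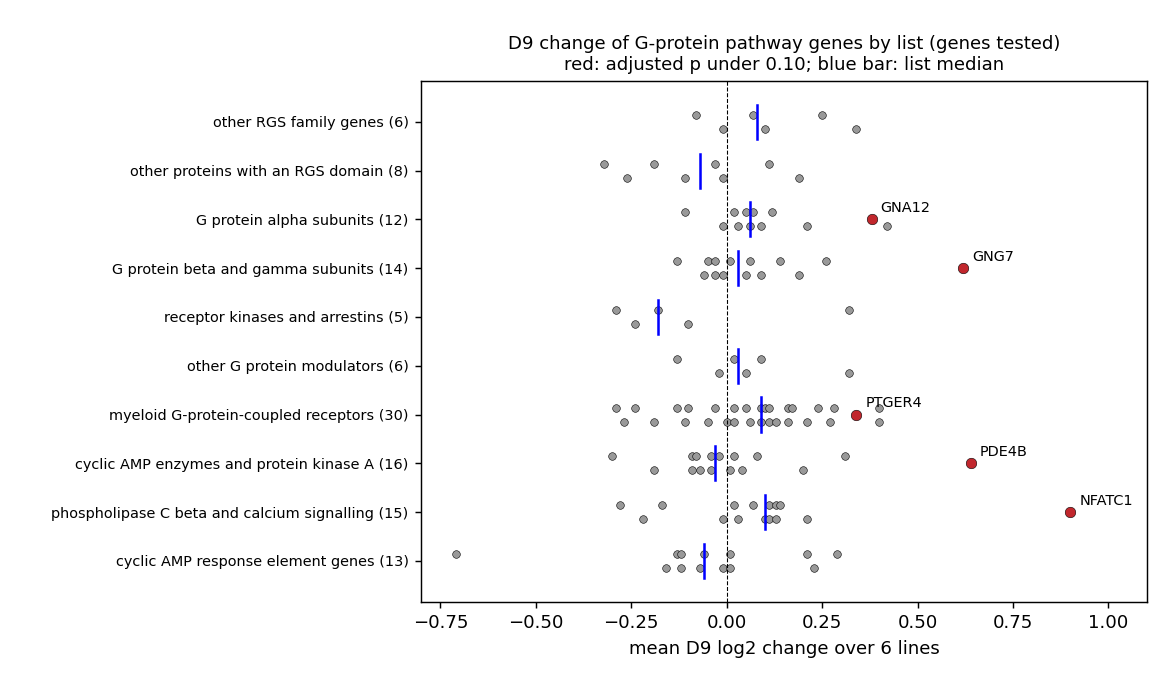
Mean D9 log2 change over the 6 lines (horizontal axis) of each tested gene, by pathway list (rows, with the number of genes tested). Red points passed at an adjusted p under 0.10 and blue bars are list medians, which lie between -0.18 and 0.10.

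The median change of the 10 monocytic markers was 0.42 in Mono-Mac-1, 0.40 for MOLM-14, 0.26 for THP-1, 0.15 for KG-1a, -0.07 for TF-1 and -0.14 for MV-4-11. In the same order the mean RGS2 changes were 1.37, 0.91, 2.40, 0.60, 1.44 and 0.09. The summed untreated signal of these markers ran from 675 in KG-1a to 31547 in MOLM-14. Of the 10, CSF1R, the receptor for macrophage colony-stimulating factor, was called higher, with a rise of 0.37 ± 0.08 (SE, limma, adjusted p = 0.0571), and 0 were called lower. Of 5 tested genes in the list of stem and progenitor markers MPO, which encodes the granule enzyme myeloperoxidase, was called higher, with 0.88 ± 0.21 (SE, limma, adjusted p = 0.0834). Untreated MPO did not follow the progenitor gene CD34. It read 9.96 in Mono-Mac-1, 9.05 in MOLM-14, 8.14 in THP-1 and 6.9 in MV-4-11, but 6.1 in TF-1 and 6.61 in KG-1a. CD34 itself had a mean D9 change of -0.09 and was not called. Of the erythroid, lymphoid and stromal markers (8, 5 and 4 tested), 0 were called. Their part in the change of RGS2 was not tested.

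The genes most like RGS2 over the 11 changes of a line at a dose were ARHGAP27 and PYHIN1 (Pearson r = 0.961 for each), ZFAND2B (0.951), HIC2 (0.950) and SLC61A1 (0.949). Least like it were ZFAND1 (-0.958), RPL23AP64 (-0.943) and TRAPPC11 (-0.938). These r are a description over 11 points that share the untreated array of each line. Only ARHGAP27 had a change of like size, from 1.89 in THP-1 through 1.13 (Mono-Mac-1), 1.12 (TF-1), 0.60 (KG-1a) and 0.56 (MOLM-14) to -0.06 in MV-4-11, while the other 4 at the high end had mean changes of 0.12 to 0.15. In level over the 17 arrays, RGS2 was most like PTGS2 (r = 0.966), POLR3GL (0.902) and CA2 (0.881). PTGS2, which encodes cyclooxygenase-2, read 7.59, 8.35 and 8.31 in THP-1 and 7.51, 7.88 and 8.22 in MOLM-14. It was lowest in MV-4-11, with 6.40 and 6.51, the line in which RGS2 was not distinguished from background.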

How the data were processed

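Expression was measured on Illumina HumanHT-12 V4 bead arrays, 1 array per line and condition. Of the files used, 1 holds probe intensity on a linear scale, which the authors summarised in GenomeStudio (version not given in the sources used here) and deposited with no normalization between arrays. The other holds log2 values deposited by the authors, with array medians of -0.21 to 0.26. Subtracting the 75th percentile of each array and then the median of each probe from the deposited signals in log2 gave these values within 0.00061, so their scale, centring and direction are known, and they served as an alternative. No source used here names a genome build for the probes.

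Signals were corrected with limma's normexp method (offset 50), then quantile-normalized and log2-transformed (limma 3.58.1, R 4.3.3). Probes with a mean level above the 40th percentile (6.16) were kept, 28394 of 47323. Of all probes 30113 had 1 gene symbol, 8 several and 17202 none, and 30074 symbols were updated by gene number.

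Each line's D9 change was the mean of its treated arrays minus its untreated array. The pairing is by cell line: untreated and 1 µM levels from the same line correlated at 0.853 to 0.942 after the means of dose and class were removed. The 6 changes were fitted in limma with a mean per class, the 5 minus 1 µM step over 5 lines, and untreated cells as 3 against 3. A probe was called where its p, adjusted by Benjamini-Hochberg over all tested probes, was under 0.10. Lines are the replicates and 3 per class limit the precision, so p-values measure the spread between these lines. Chips and scan dates are not named, and batches were not tested. Significance analysis of microarrays, which the study used, permutes samples and was not run.

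Named were the 8 members with all probes, the called genes of each list (up to 6), the genes most and least like RGS2 in change, and the 3 most like each member in level. The members and lists were chosen with earlier results of these data known. The fits were tested on simulated data. Promoter windows were searched with Python 3.11.15 on both strands. Alternatives were other background corrections, median scaling, the authors' values, other filters, a threshold of 0.05, each dose alone, no pairing, every array with the line as a block, the methods' t-test and leaving out each line.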

Additional observations from a re-analysis of the deposited data

Results flagged for a closer look

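Single lines stood apart in 12 of 68 groups of 5 or 6 values, by the gap of the highest or lowest value to its nearest neighbour, where chance gives about 1 in 20 if groups are independent. These groups are not, since the same lines and probes recur at each dose and 1 gene can count up to 3 times. RGS2 at 1 µM D9 was lowest in MV-4-11, at 6.30. RGS16 at 1 µM was highest in Mono-Mac-1, at 9.08. In untreated cells RGS3 was highest in TF-1 on ILMN_1731478 (6.41) and lowest in THP-1 on ILMN_1724349 (6.04), both close to the filter level. RGS12 was lowest in KG-1a, at 6.10 untreated and 6.16 at 1 µM. RGS13 was highest in KG-1a, at 6.70 untreated, 7.09 at 1 µM and 7.29 at 5 µM. RGS17 was highest in TF-1, at 8.72 untreated, 8.72 at 1 µM and 8.88 at 5 µM. No D9 change of an RGS gene stood apart in this way. A split by class, with opposite directions in the 3 sensitive and the 3 resistant lines, was looked for among 37 probes. On the quantile scale it was absent from the 11 tested member probes and the 6 tested probes of other RGS genes. The rest of the 37 belong to pathway genes chosen for a call for D9 or the dose step. A D9 call favours probes that move one way in all lines, so the absence of a split among them is not informative.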

How the results depend on the processing

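The 8 members kept the sign of their mean D9 change in every alternative run for single genes, except RGS16, which ran from -0.16 to 0.04, and RGS18, from -0.16 to 0.12. With a line left out the change is the average of both class means. RGS2 ran from 0.90 to 1.51, RGS19 from -0.45 to -0.22 and RGS10 from 0.06 to 0.26. The RGS2 dose step ran from 0.29 to 0.44, and its class difference from -1.08 to -0.18. The class difference and the untreated difference gave 0 probes, and so 0 members, in all 17 and 13 alternatives. The count for D9 (1588) was 891 with median scaling, 486 at a threshold of 0.05, 514 at 1 µM only, 5 where lines were not paired and 4547 over every array, with the line as a block. It was 108 without Mono-Mac-1, 512 without TF-1, 584 without MV-4-11, 869 without THP-1 and at most 1373 without any line. The count for the step (155) was 8 with an offset of 16, 24 with median scaling and 59 at a threshold of 0.05. It was 3 without KG-1a, 8 without MOLM-14, 12 without TF-1, 91 without Mono-Mac-1 and 308 without THP-1. The causes were not tested. Among the alternatives run for single genes, calls were lost in 4 of 14 for GNG7, 7 for PTGER4, NFATC1 and MPO, 9 for PDE4B and 5 for CSF1R, and in 9 of 12 for the ARRB1 step. Line medians moved by at most 0.09 between scalings. Probes at background limit RGS3, RGS14 and the MV-4-11 value of RGS2.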

Other observations

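Among members whose level spanned at least 1 log2 unit over the 17 arrays, RGS10 was most like IKZF5 (Pearson r = 0.989), RNF144A (0.977) and CD59 (0.977). RGS1 was most like PLEKHO1 (0.970), PLEKHA5 (0.966) and SBF2 (0.952). RGS16 was most like ZNF395 (0.918), ISCU (0.914) and MIR503HG (0.908), and RGS18 like CYP2R1 (0.926), TRIM32 (0.921) and LTA4H (0.914). RGS19 was most like ATP2A2 (0.920), PABPC4 (0.872) and IQCB1 (0.868). The arrays of a line are not independent, so each r rests mainly on 6 lines and is a description.

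CREB1, the factor that binds the cyclic AMP response element, differed between its probes, and is named here after its values were seen. ILMN_2334242 rose by 0.62 ± 0.10 with D9 (SE, limma, adjusted p = 0.0383) and was higher in 6 of 6 lines. The brightest, ILMN_2334243, read 0.23 ± 0.08 (adjusted p = 0.156 by limma). The other tested probes, ILMN_1841334, ILMN_3250923 and ILMN_2382758, read -0.05, 0.12 and -0.12, the last lower in 5 of 6 lines. Only ILMN_2334242 was called.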
